A study of Homo sapiens with 8 samples.

Results

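The comparison sets ATF4 binding in asparaginase-treated Nalm6 cells against ATF4 binding in asparaginase-treated SUPB15 cells. It uses 4 of the 8 samples of the series, each with 1 list of ATF4 peaks, and the 4 lists were joined wherever their peaks shared at least 1 bp. This gave 127566 regions, against 132657 when the 4 untreated lists were joined as well. Both lines are established lines of acute lymphoblastic leukaemia, and both are known as B-cell precursor lines, SUPB15 being one that carries the Philadelphia chromosome. The 2 Nalm6 and 2 SUPB15 samples compared received L-asparaginase at 1 IU/ml for 2 h, and the untreated samples of both lines, 2 each, received no drug. The labels name no genetic change made to the cells. For Nalm6 the design text speaks of 3 independent experiments, of which 2 were analysed here, whereas nothing says that the SUPB15 samples came from separate cultures, so the spread between them may be technical. The labels name no batch, and the cell line and any separate handling of the lines cannot be told apart. Nalm6 stands here for 1 line and SUPB15 for another, so that a difference between them belongs to these lines and to no wider group. Positions are in the hg19 build. No gene names, gene positions or sequences are given for the regions, because an annotation and a genome of that build were not used here, and for the same reason lineage markers of the lines were not checked.

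ATF4 is a bZIP transcription factor of the integrated stress response. When amino acids run short, the kinase GCN2 phosphorylates eIF2α, general translation falls and translation of ATF4 mRNA rises. ATF4 then binds as a dimer, often with C/EBP proteins, at composite C/EBP-ATF elements near genes of amino acid synthesis, amino acid transport and tRNA charging. L-asparaginase is an enzyme drug that breaks down asparagine, an amino acid that many leukaemic lymphoblasts make poorly, and so sets off this response.

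The treated lists held 43376 and 48984 peaks for Nalm6 and 88302 and 41213 for SUPB15. The average was 46180 ± 3965 (SD, n = 2) in Nalm6 and 64757.5 ± 33297 (SD, n = 2) in SUPB15, and the SUPB15 lists spanned those of Nalm6 (ratio of geometric means, Nalm6 over SUPB15, 0.764; exact two-sided permutation test, p = 1). Without SUPB15 replicate 1 the ratio was 1.12, so this one list decided its direction. Peaks that passed a stricter −log10 q of 10 numbered 21220 and 24448 in Nalm6, against 13384 and 7615 for SUPB15. Among these the order of the lines was the reverse, with 2.26 times as many peaks in Nalm6 and no overlap between the lines (p = 0.33 in a two-sided exact permutation test, the lowest value open to 2 against 2 samples). Nalm6 peaks were also higher and wider. The median fold enrichment, the peak caller's ratio of fragments at the summit to the local background, was 5.07 and 5.02 in Nalm6, against 3.47 and 3.65 for SUPB15. The median width was 453 bp in both Nalm6 lists and 279 and 273 bp in the SUPB15 lists. Sequencing depth went the other way. A measure of it, the lowest background pileup solved for any peak of a list and called genome background below, was 2.21 and 2.33 in Nalm6. It was 4.19 and 3.93 for SUPB15. The part of depth in these differences was not tested.

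In each treated line, the regions found in that line alone were about as many as those shared by both lines. A peak in both Nalm6 lists and in neither SUPB15 list was found at 16239 regions, 12.7% of all regions, which are called Nalm6-only below. The opposite class, SUPB15-only, held 11497 regions (9.01%). All 4 lists had a peak at 13473 regions (10.6%). Of the 36658 regions in both Nalm6 lists, 36.8% (95% Wilson interval 36.3 to 37.2) were in both SUPB15 lists and 44.3% (43.8 to 44.8) in neither. Of the 26418 regions in both SUPB15 lists, 51.0% (50.4 to 51.6) were in both Nalm6 lists and 43.5% (42.9 to 44.1) in neither. These intervals, like all those on shares of regions here, cover counting error only. Mixed pairs of 1 Nalm6 and 1 SUPB15 list had 60 to 1248 regions to themselves. Most regions, 59.6%, rested on a single list, and 51435 (40.3%) on SUPB15 replicate 1 alone. These count in the total from which the class shares were taken.

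With lists cut to the same length the Nalm6-only class stood out more. The 41213 strongest peaks by −log10 p were kept in each list, which left out none of SUPB15 replicate 2 and 47089 peaks of SUPB15 replicate 1. The last peak kept had a −log10 p of 5.59 and 6.74 in the Nalm6 lists, 7.31 in SUPB15 replicate 1 and 3.35 in SUPB15 replicate 2, and the first peak left out had the same value in each list that was cut. The 85563 regions now comprised 16740 Nalm6-only (19.6%), 8262 SUPB15-only (9.66%) and 12097 in all 4 lists (14.1%). Replicates of Nalm6 shared 84.6% and 83.3% of their regions, replicates of SUPB15 53.4% and 54.6%, and lists of different lines 36.5% to 40.4%. SUPB15 replicates were thus less alike than Nalm6 replicates, and a region found in 1 SUPB15 list only cannot enter the SUPB15-only class. When only the 5000 strongest peaks per list were used, a length chosen after the data had been seen, replicates shared 82.9% to 87.4% in both lines and lists of different lines 49.4% to 50.1%. At that length there were 1823 Nalm6-only, 1756 SUPB15-only and 2153 common regions, so the classes of the lines were nearly the same size.

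**Figure D1:**
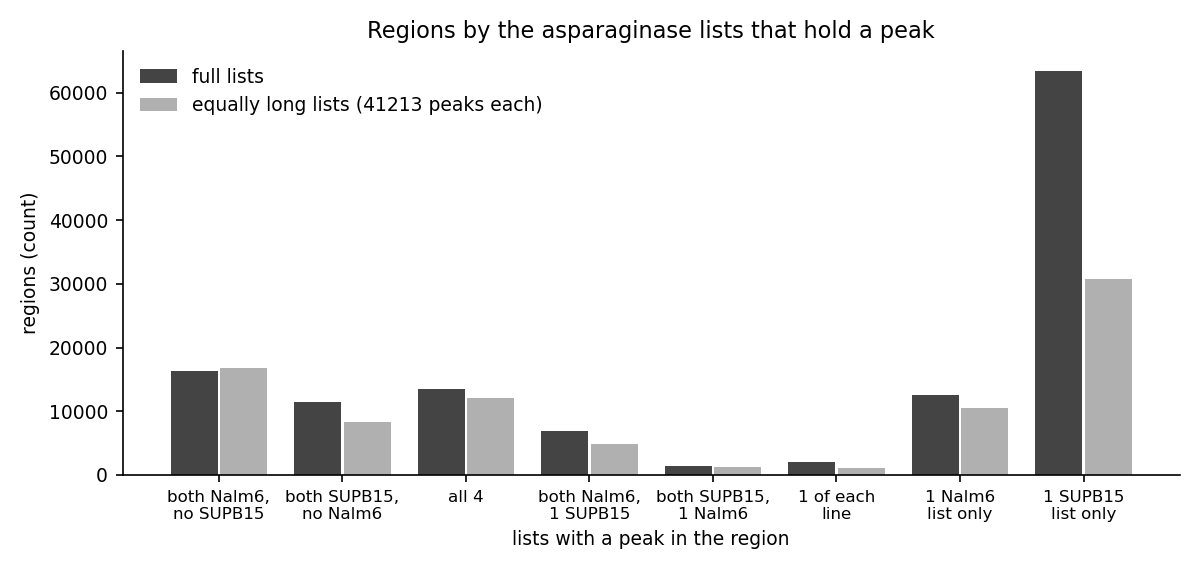
Number of regions (vertical axis) by the asparaginase lists that hold a peak there (horizontal axis), for full lists (dark bars) and for lists of 41213 peaks each (light bars). The 3 classes on the left hold 16239, 11497 and 13473 regions at full length and 16740, 8262 and 12097 at equal length, and most other regions rest on 1 SUPB15 list.

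The strongest regions of a line were mostly listed in the other line too. Taking regions among the 1000 strongest peaks of both Nalm6 lists, 856 of 925 (92.5%) had a peak in both full SUPB15 lists and 44 (4.76%) had none. Of the 854 regions chosen likewise in SUPB15, 814 (95.3%) were in both full Nalm6 lists and 32 (3.75%) in neither. The share without a counterpart grew as weaker peaks were let in. For the 5000 strongest it was 12.6% (95% Wilson interval 11.6 to 13.6) of the Nalm6 regions and 10.8% (9.88 to 11.8) of the SUPB15 regions, and for the 20000 strongest 24.1% and 26.6%. Regions of both Nalm6 lists were also put in 10 equal bins by the lower of their 2 fold enrichments, and 12.4% of the weakest and 77.8% of the strongest bin were in both SUPB15 lists. In SUPB15 the lowest share in both Nalm6 lists, 35.8%, fell in bin 4, with 53.1% in the weakest bin and 87.4% in the strongest. Absence from a list is not a level of 0. At genome background the treated Nalm6 lists began at 4.98 and 4.29 times that background and the treated SUPB15 lists at 3.10 and 3.31 times.

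**Figure D2:**
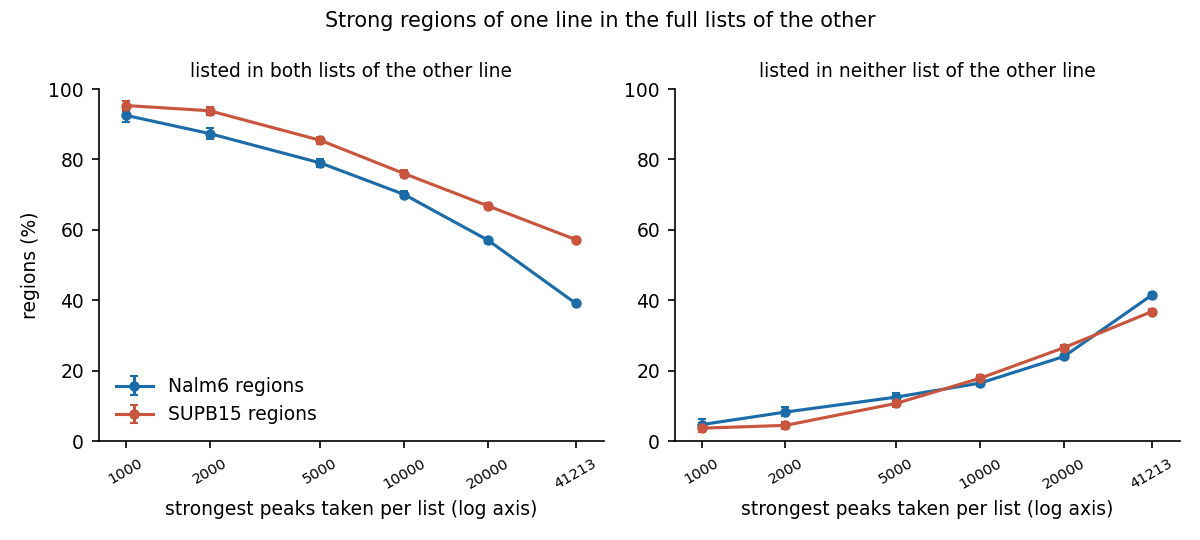
Regions among the strongest peaks of both lists of a line (horizontal axis, log scale), with the share of them (vertical axis, %, bars are 95% Wilson intervals) listed in both full lists of the other line (left) and in neither (right). The share with no counterpart stays under 5% for the 1000 strongest peaks and reaches 41.4% of Nalm6 and 36.8% of SUPB15 regions at 41213 peaks.

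Nalm6-only regions had a median width of 531 bp and a median lower fold enrichment of 4.38, and 31.8% of them reached a −log10 q of 10 in both Nalm6 lists. SUPB15-only regions were narrower and lower, with 395 bp, 3.47 and 10.4%. The whole lists differed in the same direction. Of their peaks, 48.9% and 49.9% reached that −log10 q in Nalm6, against 15.2% and 18.5% in SUPB15. Regions in all 4 lists had a median width of 889 bp, although joining more peaks widens a region by construction. Their median lowest fold enrichment was 3.94, and 33.6% reached a −log10 q of 10 in all 4 lists. The nearest region with a peak of the other line was within 1 kb for 14.4% of the Nalm6-only and 5.33% of the SUPB15-only regions, and within 10 kb for 57.9% and 27.7%, and the median gap was 7717 bp and 28441 bp. With equally long lists the shares within 1 kb were 8.90% and 4.95% and the median gaps 12766 bp and 29494 bp. A peak in either list of the other line counted. The full SUPB15 lists held more peaks on average, 64757.5 against 46180, so Nalm6-only regions had more regions to lie near. The part of this in the contrast was not tested, and no such share was computed for other regions. Where all 4 lists had a peak, the highest summits of the 2 Nalm6 lists lay a median of 35 bp apart and those of the 2 SUPB15 lists 43 bp, compared with 58 to 60 bp between the lines. The share within 200 bp was 91.5% for the Nalm6 lists. It was 83.2% for the SUPB15 lists and nearly the same, 80.9% to 81.4%, between the lines.

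The 10 Nalm6-only regions of highest enrichment, ranked by the lower fold enrichment of both lists, reached lower values of 16.8 to 22.5. They were thus chosen for high treated values, which favours treated over untreated heights. In the following, heights are the number of fragments piled up at the summit, plus 1, divided by the genome background of the same list, so that lists of different depth share a scale. The first region lay at chr17:19015121-19015575, with heights of 46.6 and 48.0 in treated and 42.4 and 44.8 in untreated Nalm6. A region at chrX:154493311-154493977 had heights of 58.9 and 69.9 with asparaginase and 17.2 and 23.3 without. At chr10:1677262-1678229 they were 93.7 and 105.1 with asparaginase and 27.6 and 37.6 without. The treated values of these 3 regions lay above the untreated ones, narrowly on chromosome 17 (ratio of geometric means 1.09) and about 3-fold at the others (3.21 and 3.08).

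Another region on the same chromosome, chr17:62038577-62039318, was at 53.4 and 54.1 in treated and at 8.75 and 13.3 in untreated Nalm6, a ratio of 4.99. The largest ratio of the 10, 5.09, was that of chr1:106564824-106565760, with 80.6 and 89.2 against 15.5 and 17.9. At chr1:51887502-51888461 heights were 111 and 119.7 in treated and 39.0 and 44.1 in untreated Nalm6. This last region was the only one of the 10 with a listed SUPB15 peak in any library, at a height of 6.37 in untreated replicate 1. Regions chr3:156943831-156944510 (46.2 and 49.3, against 11.4 and 10.0) and chr6:148155390-148156143 (65.2 and 65.2, against 21.2 and 21.9) showed the same order. At 2 regions treated and untreated heights overlapped. They were 69.3 and 72.5 against 67.0 and 72.4 at chr3:50358439-50359429, and 27.6 and 29.6 against 25.2 and 28.0 at chr17:18966741-18967302. In all, treated heights were above the untreated ones at 8 of the 10 regions, with ratios of 1.02 to 5.09 over the 10. Of all 9971 Nalm6-only regions listed in both untreated Nalm6 libraries, 63% had both treated heights above both untreated ones and the median ratio was 1.32. These regions too were chosen by their treated peaks. Heights were not centred between treated and untreated libraries, so this share includes any general difference between the libraries. At genome background the treated Nalm6 lists began at 4.98 and 4.29 times it and the untreated ones at 3.70 and 4.30 times.

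The 10 SUPB15-only regions chosen in the same way had lower enrichments of 14.9 to 20.3, and their choice likewise favours high treated values. The leading one, at chrX:131986975-131987585, stood at 40.3 and 31.1 times the genome background in treated and at 13.0 and 8.98 times in untreated SUPB15. The highest of the 10 was at chr16:85961967-85962672, with heights of 79.0 and 62.4 in treated and 24.5 and 23.1 in untreated cells. At chr5:4374855-4375528 they were 58.0 and 46.9 against 19.4 and 18.7. In each of these regions replicate 1 of the treated cells was higher than replicate 2, and both were above the untreated libraries.

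Further SUPB15-only regions were at chr16:66535930-66536795 (48.0 and 31.1 with asparaginase, 11.8 and 10.0 without), at chr9:6080113-6080802 (52.3 and 41.2, against 15.4 and 12.8) and at chr13:27197140-27197797 (35.3 and 30.8, against 11.3 and 9.49). Regions chr2:36384094-36384704, chr12:19340269-19340680 and chrX:136318655-136319505 had treated heights of 22.7 to 32.0 and untreated heights of 6.16 to 11.3. The treated libraries exceeded the untreated ones at 9 of the 10 regions, by 2.74 to 3.56 times. Of the 512 SUPB15-only regions listed in both untreated SUPB15 libraries, 57% had both treated heights above both untreated ones, with a median ratio of 1.24. Here too the regions were chosen by treated peaks and the heights were not centred. The exception among the 10 lay at chr1:567392-567766, where heights were 21.95 and 25.5 with and 22.3 and 23.9 without asparaginase. No library of Nalm6, treated or untreated, listed a peak at any of the 10.

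Among regions in all 4 lists, the lowest of the 4 enrichments was highest, 19.7, at chr5:39716387-39717146. Heights there were 84.7 and 86.2 in treated Nalm6 and 51.5 and 45.1 in treated SUPB15, beside 24.9 and 34.4 and 19.6 and 15.4 in the untreated cells. The region at chr20:19609036-19610001 had 108 and 114 in treated Nalm6 and 53.5 and 49.4 in treated SUPB15. At chr11:14873802-14874687 the lines came closer, with 63.4 and 65.6 for Nalm6 and 60.1 and 53.7 for SUPB15. At these 3 regions Nalm6 heights were above SUPB15 heights, before any correction for the general difference in height between the lines given below.

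The other 7 regions were at chr18:59236483-59237395, chr3:16592015-16593070, chr1:59643075-59644120, chr9:85505456-85506605, chr2:197264483-197265494, chr7:37092189-37092983 and chrY:58827157-58827539. Over the 10 regions treated heights were above untreated ones at 10 in Nalm6 (ratios 1.15 to 4.17) and at 8 in SUPB15 (0.978 to 3.27), again after a choice by treated values. Over all common regions listed in both untreated libraries of a line, the share was 61.4% of 10280 in Nalm6 (median ratio 1.31) and 69% of 4191 in SUPB15 (1.59). These regions were likewise chosen by treated peaks, without centring of the heights. The chromosome 2 region had the largest ratio in Nalm6, 127 and 139 against 28.9 and 35.1, whereas in SUPB15 treated heights of 44.1 and 60.1 overlapped the untreated 49.7 and 40.3. That difference in response between the lines was not tested. The chromosome Y region, 383 bp wide, changed least, with heights of 24.1 to 33.0 in all 8 libraries.

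**Figure D3:**
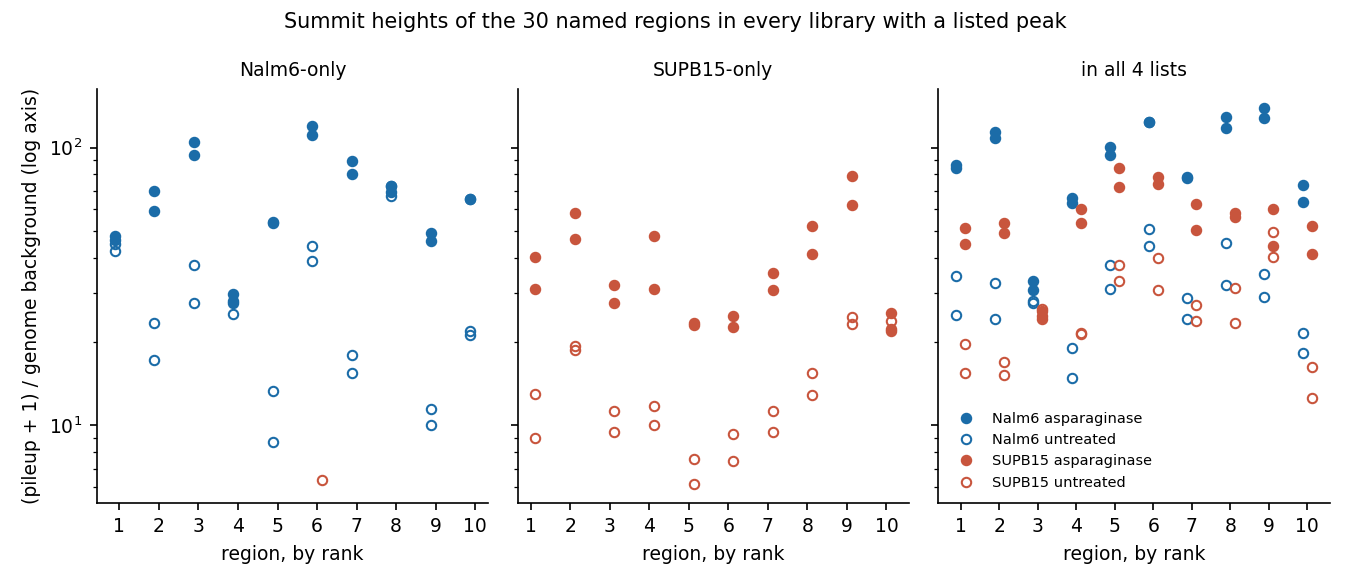
Summit height, as pileup plus 1 over the genome background of the list (vertical axis, log scale), at the 10 named regions of each class in order of rank (horizontal axis). Filled points are asparaginase and open points untreated libraries, 2 per line and treatment, and a missing point means that no peak was listed. Most filled points lie above the open points of the same line, except at Nalm6-only regions 4 and 8, SUPB15-only region 10 and, in SUPB15, regions 3 and 9 of those in all 4 lists.

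The untreated libraries, which took no part in the classes, were also searched at their regions. Of the Nalm6-only regions, 61.4% (95% Wilson interval 60.7 to 62.1) had a peak in both untreated Nalm6 lists and 22.3% in neither, and 98.7% had none in either untreated SUPB15 list. Of the SUPB15-only regions, 4.45% (4.09 to 4.85) were listed by both untreated SUPB15 libraries and 84.4% by neither, and 98.8% had none in the untreated Nalm6 lists. Nalm6-only sites were thus mostly listed in untreated cells too and SUPB15-only sites mostly not. The untreated SUPB15 lists hold 9575 and 9586 peaks, against 34825 and 36801 in untreated Nalm6, and the part of list length in this contrast was not tested. Shares over all 127566 regions, far more than these lists hold peaks, were not computed. A high share in neither untreated SUPB15 list can therefore not be called particular to the SUPB15-only class. Among regions in all 4 treated lists, 76.3% were in both untreated Nalm6 lists and 31.1% in both untreated SUPB15 lists. All 4 untreated lists held 3804 of them (28.2%), and none held 1678 (12.5%).

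Where all 4 treated lists had a peak, its height could be compared between the lines. Before any correction the median region was 2.22 times as high in Nalm6 as in SUPB15 (1.15 on the log2 scale). Whether this general difference lies in the libraries or in ATF4 binding cannot be told apart here. Differences below are on the log2 scale, relative to that median. Relative to it, 2050 of 13473 regions (15.2%) were higher in Nalm6 and 3013 (22.4%) were higher in SUPB15 (limma, Benjamini-Hochberg adjusted p under 0.05, 2 against 2 libraries). Without the correction, 10232 were higher in Nalm6 and 451 in SUPB15. With the local background of each peak in place of the genome background, 865 of the 2050 and 1283 of the 3013 passed in the same direction and 218 and 114 in the opposite one. The median size among calls was 1.98-fold in the Nalm6 direction and 2.15-fold in the SUPB15 direction, and at least 2-fold for 983 and 1813 regions. The other 8410 regions did not pass the threshold, which does not show that they were equal.

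The balance of the calls went with peak height. In the weakest of 10 equal bins of the 13473 regions the median difference was -0.61, with 7 regions called higher in Nalm6 and 692 in SUPB15. In the strongest bin the median difference was 0.06 and the counts were 314 and 183. Stronger binding in SUPB15 and the lower limits of the lists cannot be told apart in the lean of the weakest bin. Every region had to be in all 4 lists, which at genome background began at 4.98 and 4.29 times it in Nalm6. In SUPB15 they began at 3.10 and 3.31 times, and subtracting 1.15 puts a region near these limits on the SUPB15 side. When the correction was allowed to vary along peak height, an alternative chosen after the data had been seen, the counts were 2271 and 2438. Of the original calls, 1837 of 2050 and 2286 of 3013 passed the threshold there too. Single libraries moved the counts. Calls towards Nalm6 numbered 598 and 498 without Nalm6 replicate 1 and replicate 2, and 3474 without SUPB15 replicate 2, and calls towards SUPB15 numbered 1534 without Nalm6 replicate 2. Pileups also have an upper end, 400, 400, 400 and 398 in the 4 lists. An inference from these values, since the caller's options are not stated, is that fragments were extended to 200 bp and each start and strand counted once, which allows at most 2 × 200. SUPB15, with the higher genome background, meets this end at a lower height, and 372 regions had a pileup of 300 or more in some list.

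**Figure D4:**
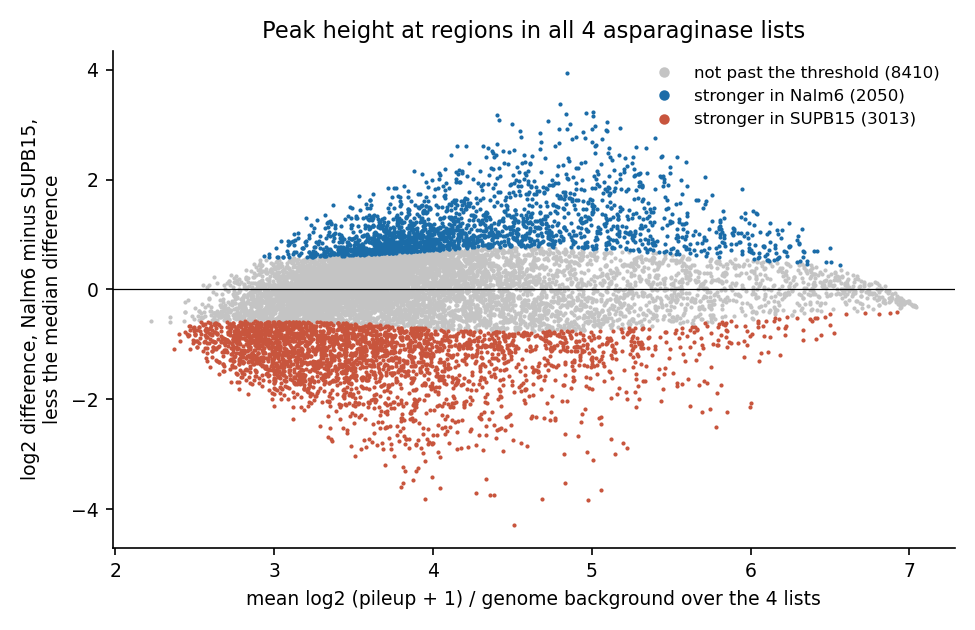
Log2 difference in height, Nalm6 minus SUPB15 and less the median difference (vertical axis), against the mean log2 height over the 4 asparaginase lists (horizontal axis), 1 point per region. Blue points (2050) and red points (3013) passed limma's threshold, and the red points crowd at low mean height.

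The largest difference towards Nalm6 was at chr7:97501083-97502155. At this region 377 and 381 fragments were piled up in treated Nalm6 and 20 and 18 in treated SUPB15, or 171 and 164 times against 5.01 and 4.84 times the genome background. The difference was 3.94 ± 0.32 (SE; limma adjusted p = 3.99e-31), or 15.3-fold beyond the general one. Here and in all limma results, SE and p rest mainly on a variance fitted along height over all regions of these 4 libraries. They do not measure the spread between replicates at the region itself. Untreated Nalm6 already had heights of 89.5 and 105.8 there, and the untreated SUPB15 lists held no peak. Fold enrichments over the local background of the same list were 16.3 and 15.3 for Nalm6 and 4.05 and 3.86 for SUPB15. On that scale, which takes in fragments of the peak itself, the difference was 1.14 (limma adjusted p = 0.000763).

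The next 4 regions towards Nalm6 differed by 3.19 to 3.38. At chr8:100727325-100728596 Nalm6 heights were 129 and 139 and SUPB15 heights 5.49 and 6.11. At chr6:150738638-150740044 they were 145 and 149.7 against 9.31 and 5.35. Divided by the local background instead, these 2 differences fell to 0.51 and 0.33 and did not pass the threshold (limma adjusted p = 0.0533 and 0.286). Regions chr2:62965606-62966693 (142 and 141 against 5.49 and 8.66) and chr4:83169850-83171278 (123 and 135 against 5.25 and 7.64) kept a difference of 0.86 and 1.10 on the local scale, with adjusted p of 0.0263 and 0.00123 in limma. All 5 regions were listed in both untreated Nalm6 libraries. Those on chromosomes 8 and 2 also had peaks in both untreated SUPB15 libraries, at heights of 8.82 and 6.67 and of 11.5 and 6.16, and that on chromosome 4 had one in replicate 1, at 8.33.

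Towards SUPB15 the largest difference was at chr3:65698534-65699194. Pileups were 313 and 240 in treated SUPB15 and 18 and 15 in treated Nalm6, or 74.9 and 61.4 times against 8.60 and 6.86 times the genome background. The difference was -4.29 ± 0.32 (SE; limma adjusted p = 1.18e-35), or 19.6-fold. At chr8:75112732-75113493, heights were 85.7 and 74.3 in SUPB15 and 14.9 and 10.3 in Nalm6, at chr3:124873514-124874181 75.6 and 55.5 against 9.06 and 11.6. At chr18:44002307-44002938 they were 50.6 and 29.8 against 5.89 and 6.44, and at chr2:105274792-105275616 58.0 and 43.5 against 9.06 and 7.72. These 4 regions differed by -3.84 to -3.74. All 5 were listed in both untreated SUPB15 libraries and in neither untreated Nalm6 library, and all 5 passed the threshold on the local scale with differences of -2.16 to -1.31.

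Heights in the untreated cells mostly leaned the same way as in the treated cells. At the 3804 regions listed in all 8 libraries the median untreated height was 2.54 times as high in Nalm6, and differences were again taken relative to that median. Of 608 such regions higher in treated Nalm6, 531 or 87.3% (95% Wilson interval 84.5 to 89.7) were on the Nalm6 side without treatment too, with a median of 0.67 beside 0.94 with treatment. Of 535 higher in treated SUPB15, 528 or 98.7% (97.3 to 99.4) were on the SUPB15 side, with a median of -1.30 beside -1.02. By construction, 50% of all 3804 lie on either side, but that is not the share to set beside called regions. At genome background the untreated lists began at 3.70 and 4.30 times it in Nalm6 and 3.68 and 3.59 times in SUPB15. With 1.34 subtracted on the log2 scale, regions near these limits fall on the SUPB15 side, so agreement towards SUPB15 is partly built in. Over all calls, 96.9% of the regions higher in Nalm6 were in both untreated Nalm6 lists and 29.7% in both untreated SUPB15 lists. For the regions higher in SUPB15 these shares were 33.6% and 28.3%, and over all 13473 regions 76.3% and 31.1%. The shares in untreated SUPB15 were therefore close to that of all regions in both directions of call.

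The classes were spread unevenly over the chromosomes. Chromosome 8 from 60 Mb onwards held 2880 SUPB15-only regions, 25.05% of the class (95% Wilson interval 24.3 to 25.9), against 1.78% (1.59 to 1.99) of the Nalm6-only regions and 2.99% (2.72 to 3.29) of the regions in all 4 lists. Chromosome 1 from 180 Mb held 9.99% of the SUPB15-only, 2.18% of the Nalm6-only and 3.25% of the common regions. With equally long lists the chromosome 8 segment still held 23.6% of the SUPB15-only regions. Without chromosomes 1 and 8 the SUPB15-only class fell to 6846 regions and the Nalm6-only class to 14196. Chromosome 19 went the other way, with 4.54% of the Nalm6-only, 1.34% of the SUPB15-only and 3.98% of the common regions. It was not alone, as chromosome X held 2.48% and 0.44% and chromosome 22 held 2.69% and 0.76% of the Nalm6-only and SUPB15-only regions. Only chromosomes 1, 8, 13 and Y held a larger share of the SUPB15-only than of the Nalm6-only class. The high share on chromosome 8 lowers the shares of that class elsewhere. Both segments were chosen after earlier results of these data were known.

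Heights at the common regions also leaned towards SUPB15 on both segments. Of the 403 common regions on chromosome 8 from 60 Mb, 175 (43.4%) were called higher in SUPB15 and 24 in Nalm6, with a median difference of -0.55. On chromosome 8 up to 60 Mb 50 of 245 (20.4%) were higher in SUPB15 and the median was 0.03. On chromosome 1 from 180 Mb 29.2% were higher in SUPB15, with a median of -0.25, against 21.4% and 0.09 on the rest of the chromosome. On chromosome 19, whose SUPB15-only share was low, heights still leaned to SUPB15, with 23.5% higher in SUPB15, 8.77% higher in Nalm6 and a median of -0.18. Outside both segments 15.7% of 12632 regions were higher in Nalm6 and 21.5% in SUPB15. The local background of the peaks, relative to the genome background, moved alongside. Its median difference, Nalm6 minus SUPB15, was -0.16 on the chromosome 8 segment and 0.54 on the rest of that chromosome. No DNA input was analysed here, so copy number and ATF4 binding cannot be told apart at these sites.

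**Figure D5:**
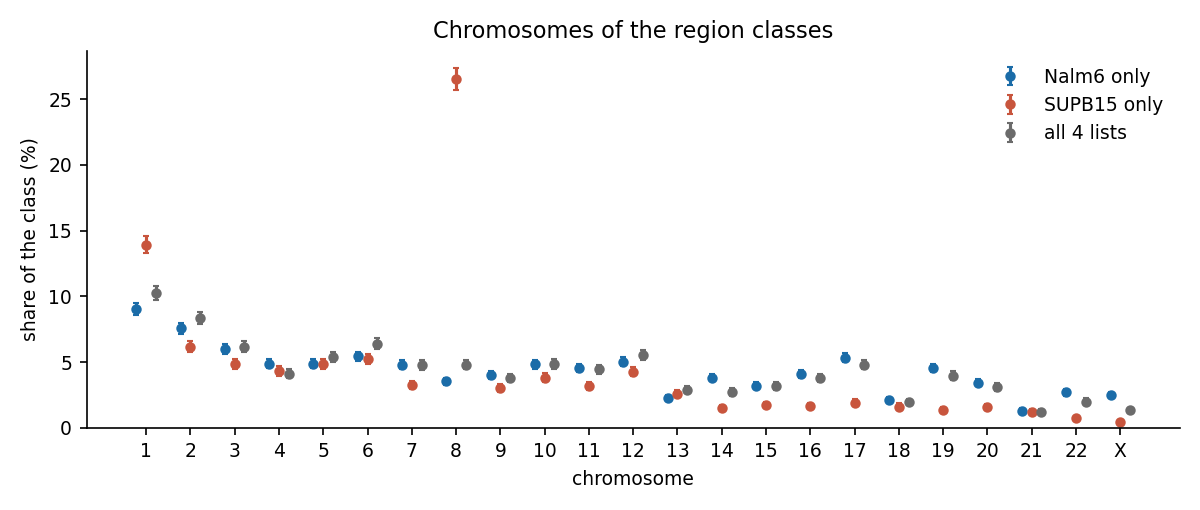
Share of each region class (vertical axis, %, bars are 95% Wilson intervals) on chromosomes 1 to 22 and X (horizontal axis), full lists. SUPB15-only regions stand at 26.5% on chromosome 8, against 3.53% of Nalm6-only regions and 4.81% of regions in all 4 lists.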

How the data were processed

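The tools named are BWA, MACS2 and DiffBind and the build is hg19, per the submitters' processing notes, without versions or options. Immunoprecipitation used 5 ug of ATF4 antibody, per the series' design text. Each deposited list belongs to 1 library and gives a fold enrichment (a ratio to local background), −log10 p and −log10 q, all computed by the authors' peak caller; the deposited display score was not used. The fold and −log10 p of each peak were solved for the whole-number summit pileup and the background, which succeeded for 100% of peaks (tolerance 0.001 in −log10 p). The lowest background was taken as the genome background and stands for relative depth; read totals are not given in the lists. Backgrounds above it were multiples of 0.02, as a 200 bp fragment over a 10000 bp window would give.

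Samples were grouped by their titles. No regions of repeats or known artefacts were removed from the deposited lists here, so named regions may include such sites. Peaks sharing 1 bp were merged; equal lengths kept the 41213 peaks of highest −log10 p. Heights at regions in all 4 lists were compared with limma 3.58.1 (R 4.3.3, trend, pseudocount 1, Benjamini-Hochberg at 0.05). The merging, inversion and limma steps were tested on simulated data. The limma simulation had no lower limit for a listed peak and no general height difference between the lines, so it does not check those effects. Regions named were the 10 per class with the highest value of the lowest fold enrichment and the 5 with the largest difference per direction. The comparison, segments and region rules were chosen with earlier results of these data known. Planned gene lists, promoter distances and motifs were not run, as only GRCh38 tables were at hand.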

Additional observations from a re-analysis of the deposited data

How the results depend on the processing

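Direction and size held unevenly. For the number of peaks, the ratio of Nalm6 to SUPB15 was 0.764 and turned to 1.42 and 2.26 at −log10 q of at least 5 and 10, and it ranged from 0.522 to 1.12 without single libraries; no p can pass 0.05 in this design. The replicate number used as a block (replicate block) left this ratio at 0.764; nothing says that same-numbered samples of the lines belong together, and the correlation of their deviations was -0.03 over 13473 regions. With the replicate block limma called 1085 regions higher in Nalm6 and 2321 in SUPB15.

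Fewer peaks per list gave fewer regions by construction. With 20000, 10000 and 5000 peaks there were 7757, 3737 and 1823 Nalm6-only, 5521, 3353 and 1756 SUPB15-only, and 6834, 3721 and 2153 common regions; the last length was chosen after seeing the data. At −log10 q of at least 5 and 10 the SUPB15-only class held 4849 and 1954 and the common class 8953 and 4525 regions, while the Nalm6-only class held 15805 and 11981. Without chromosomes 1 and 8 there were 6846 SUPB15-only regions. With a library left out, fewer lists have to hold or lack a peak: Nalm6-only regions then numbered 17014 to 25602 (highest without Nalm6 replicate 1), SUPB15-only 11894 to 63201 (63201 and 23995 without SUPB15 replicate 2 and 1) and common ones 13812 to 19664. With equally long lists 68.9% of Nalm6-only regions were in both untreated Nalm6 lists, and 6.05% of SUPB15-only and 34.2% of common regions in both untreated SUPB15 lists. Reciprocal overlap and summit distance kept each class within 1.5 times.

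Calls towards Nalm6 and SUPB15 numbered 10232 and 451 without centring, 908 and 911 where −log10 q reached 10 in all lists (fewer regions tested), 3229 and 3685 with each list centred on its own median (chosen after seeing the data), and 498 to 3474 and 1534 to 3942 without single libraries (598 and 498 towards Nalm6 without Nalm6 replicate 1 and 2 and 3474 without SUPB15 replicate 2; 1534 towards SUPB15 without Nalm6 replicate 2). Calls towards Nalm6 made up 40.5% of all calls, 95.8% without centring, 49.9% at −log10 q of 10 and 22.2% and 24.5% without Nalm6 replicate 1 and 2. Over the local background 2686 and 2986 regions were called, but only 865 and 1283 of the original calls passed in the same direction and 218 and 114 in the opposite one; the cause was not tested. A lone library of a line is assumed to vary like the other line.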
